A study of Homo sapiens with 8 samples.

Results

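The RNA of 5 members of the APOBEC3 deaminase family and 5 other antiviral restriction factors was followed in HCT116 colorectal cancer cells given interferon-gamma (IFN-γ). The genes were taken from a list of 10 symbols, fixed with earlier results of these data known: APOBEC3B, APOBEC3C, APOBEC3D, APOBEC3F, APOBEC3G, BST2, SAMHD1, RSAD2, IFI44 and IFI44L. Every one was found among the 40295 gene IDs of the count table and was among the 16519 that passed the filter on low counts. The series measured rRNA-depleted total RNA in 8 libraries, 2 in each of 4 groups: CRISPR-Cas9 knock-in HCT116 cells with the E33Q change in MED12 after 24 h with 5 ng/ml IFN-γ, untreated knock-in cells, wild-type HCT116 cells after 24 h with 5 ng/ml IFN-γ, and untreated wild-type cells. MED12 belongs to the kinase module of Mediator, which links transcription factors to RNA polymerase II. The labels name 1 knock-in line, so the E33Q change cannot be told apart from other differences between the lines, and untreated libraries are labelled 0 h, so effects of 24 h more in the dish and of IFN-γ cannot be told apart. Nothing in the labels says how the replicates were separated beyond calling them biological, and p-values measure only the spread between these libraries.

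Restriction factors are host proteins that block steps of viral replication, and many of their genes are switched on by interferons. IFN-γ acts through JAK-STAT signalling, which reaches genes at gamma-activated sites (GAS), and through factors such as IRF1, which bind interferon-stimulated response elements (ISRE). APOBEC3 enzymes convert cytosine to uracil in single-stranded DNA. APOBEC3G and APOBEC3F are known for mutating retroviral DNA, while APOBEC3B is a nuclear enzyme known for mutating the genomes of tumours.

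The libraries held 20873145 to 28006378 estimated counts in genes. Colon epithelial markers summed to 2490 to 5416 CPM (counts per 1000000 after trimmed-mean scaling) in the 8 libraries, with 1 of 12 at 0 in each. Plasma cell transcripts were present in 4 libraries: JCHAIN, the joining chain of secreted antibody, stood at 0.183 and 113.8 CPM in IFN-γ-treated knock-in libraries 1 and 2, 0.0557 and 158.1 CPM in untreated knock-in libraries 1 and 2, 0 in both IFN-γ-treated wild-type libraries, and 162.9 and 157.6 CPM in the untreated wild-type libraries. The 12 plasma cell markers summed to 81.66 to 578 CPM in treated knock-in, 67.78 to 615.9 CPM in untreated knock-in, 62.23 to 65.22 CPM in treated wild-type and 642.5 to 789.6 CPM in untreated wild-type cells, and the antibody genes IGKC, IGHA1 and IGHA2 and the receptor gene TNFRSF17 were at 0 in the 4 libraries without the signal. Nearly all of the sum in those 4 libraries was 1 marker, SDC1, at 61.24 to 79.45 CPM. The 15 leukocyte markers summed to 10.15 to 40.19, 14.25 to 41.68, 3.9 to 5.756 and 32.55 to 40.97 CPM in the same 4 groups, with CD3D, MS4A1, TYROBP and NKG7 at 0 in every library. Among them ITGA4 (4.319 to 6.36 CPM) and CD48 (4.346 to 6.961 CPM) were present in the 4 libraries with plasma cell transcripts. In the 4 without them ITGA4 was at 0 and CD48 at 0.0381 CPM or less. LCP1 and CORO1A were also higher in the libraries with the signal. In such bulk RNA, fewer cells of a type and less RNA per cell cannot be told apart. Lymphocytes and plasma cells are known to express APOBEC3G and BST2, and results on both genes are also given without the knock-in libraries that carry the signal.

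Upstream sequence is shown for the members that RefSeq promoter windows (GRCh38.p14) cover, BST2, IFI44L, IFI44, RSAD2 and SAMHD1, because members of this group rose together. Each line gives the 250 bases before an annotated start on the gene's own strand, 5′ to 3′, with matches to GAAA, any 2 bases, GAAA (an ISRE core, searched on both strands) or TTCNNNGAA (a GAS core, which reads the same on both strands) in capitals. IFI44 and RSAD2 have more than 1 annotated start, and 1 window is printed for each.
BST2 (chr19:17405631-17405880, minus strand): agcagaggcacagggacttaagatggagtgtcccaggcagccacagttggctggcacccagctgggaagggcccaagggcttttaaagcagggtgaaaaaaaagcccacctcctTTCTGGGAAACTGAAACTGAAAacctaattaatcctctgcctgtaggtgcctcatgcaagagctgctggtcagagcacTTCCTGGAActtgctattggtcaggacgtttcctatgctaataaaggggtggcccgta
IFI44L (chr1:78620198-78620447, plus strand): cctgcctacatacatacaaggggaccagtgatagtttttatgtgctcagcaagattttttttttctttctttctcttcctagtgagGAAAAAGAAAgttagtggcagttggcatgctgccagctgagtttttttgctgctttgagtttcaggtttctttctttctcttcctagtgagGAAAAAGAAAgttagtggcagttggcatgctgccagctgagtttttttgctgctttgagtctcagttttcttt
IFI44 (chr1:78649539-78649788, plus strand): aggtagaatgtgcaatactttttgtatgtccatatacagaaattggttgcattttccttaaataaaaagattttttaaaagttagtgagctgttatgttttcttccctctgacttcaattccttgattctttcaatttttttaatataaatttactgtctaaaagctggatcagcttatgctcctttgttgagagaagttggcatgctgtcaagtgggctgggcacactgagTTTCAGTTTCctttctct
RSAD2 (chr2:6877527-6877776, plus strand): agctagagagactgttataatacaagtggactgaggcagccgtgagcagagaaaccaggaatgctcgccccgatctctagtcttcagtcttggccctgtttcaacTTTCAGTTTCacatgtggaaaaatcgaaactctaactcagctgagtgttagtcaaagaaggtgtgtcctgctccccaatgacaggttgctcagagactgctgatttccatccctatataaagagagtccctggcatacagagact
SAMHD1 (chr20:36951709-36951958, minus strand): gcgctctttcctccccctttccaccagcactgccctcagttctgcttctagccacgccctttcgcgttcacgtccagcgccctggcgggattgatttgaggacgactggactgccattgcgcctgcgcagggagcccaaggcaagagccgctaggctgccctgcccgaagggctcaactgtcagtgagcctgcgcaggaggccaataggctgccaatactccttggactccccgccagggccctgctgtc
BST2 held 2 overlapping ISRE matches, at −130 to −121 and −124 to −115 relative to the start, and 2 GAS matches, the first of which overlaps the first ISRE match. IFI44L held 2 ISRE matches, at −164 to −155 and −73 to −64. IFI44 held 1 ISRE match at −18 to −9 and RSAD2 1 at −145 to −136 from these starts, and neither the other RSAD2 window nor that of SAMHD1 held a match. In the same 250 bases of all 35116 promoter windows, 3.021% held the ISRE letters and 6.567% the GAS letters. A match describes the sequence only.

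The first question is which of the genes responded to IFN-γ in the knock-in cells. RNA of 8 of the 10 genes rose and that of 1 fell, against 26.4% and 25.8% of all tested genes called higher and lower (52.1% called in either direction, edgeR's quasi-likelihood test, Benjamini-Hochberg adjusted p below 0.05 over 16519 genes). The median log2 fold change was 2.33 over the 10 genes and 0.12 over all tested genes. Because the list was chosen with earlier results of these data known, its counts and medians cannot be read as an independent excess over all genes. In wild-type cells 6 of the 10 rose and 1 fell, against 17.1% and 20.8% of all tested genes (37.9% in either direction), with a median of 1.57 for the 10 genes and 0.08 over all. Plasma cell transcripts were present in both untreated wild-type libraries and in neither treated one. For every gene, the wild-type response to IFN-γ and a difference that goes with this signal therefore cannot be told apart. BST2, SAMHD1, RSAD2, IFI44, IFI44L and APOBEC3F were called higher in each line, and APOBEC3B was called lower in each. The RSAD2 calls rest on 2 untreated counts in knock-in and 3 in wild-type cells, and RSAD2 passed the filter on low counts only through its treated libraries.

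**Figure D1:**
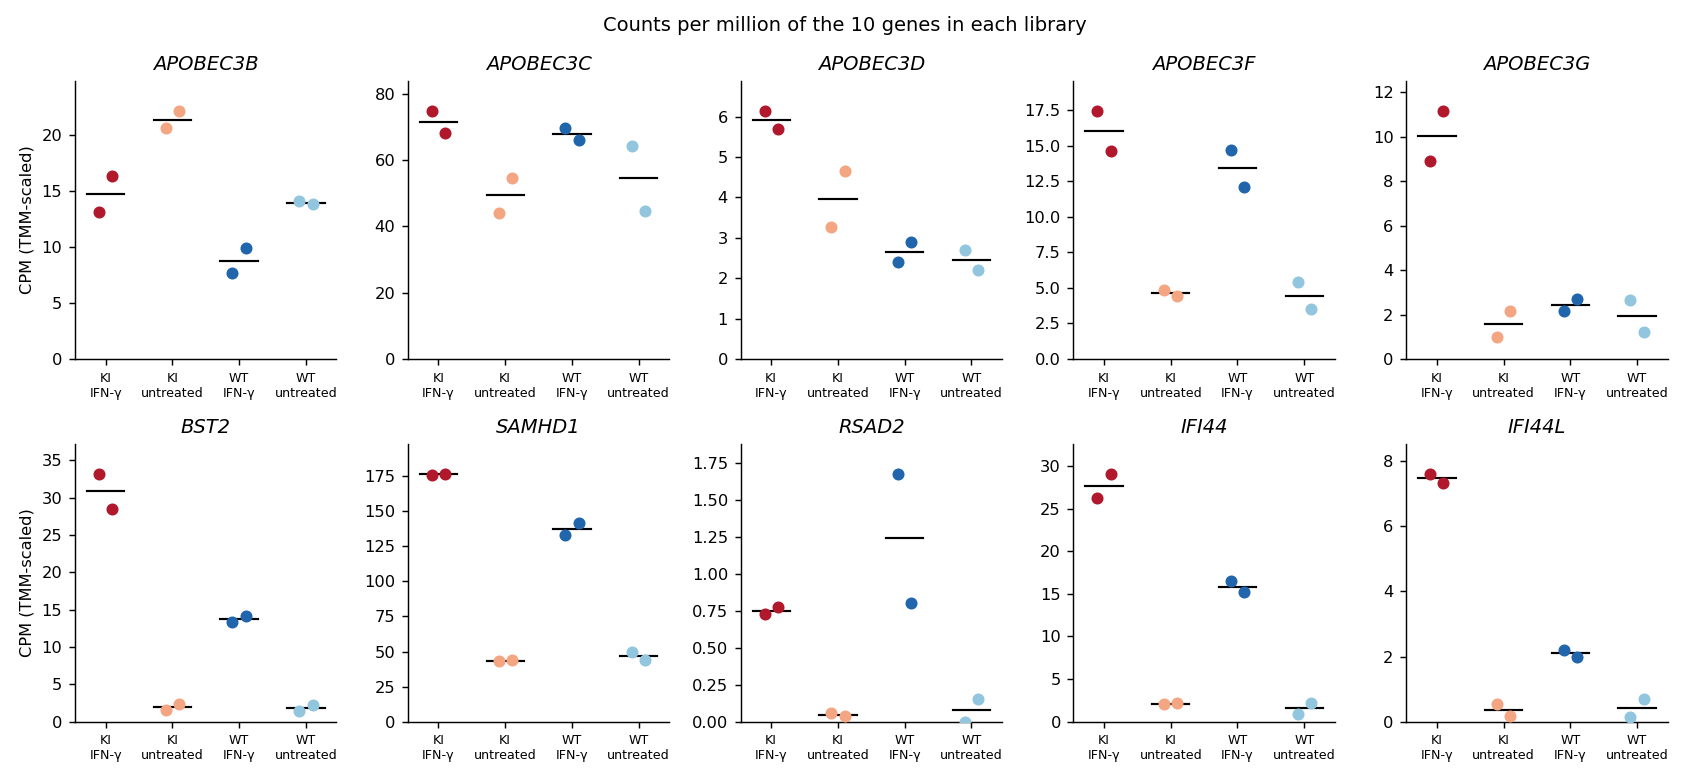
Each panel plots 1 gene in CPM, with 1 point per library, a line at the mean of 2 libraries, and groups from left to right as knock-in with IFN-γ, knock-in untreated, wild-type with IFN-γ and wild-type untreated. APOBEC3G stood at 8.89 and 11.2 CPM in IFN-γ-treated knock-in cells and at or below 2.69 CPM in every other library, while APOBEC3B was lower with IFN-γ in both lines.

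BST2 (tetherin; chromosome 19, 17402939 to 17405648 on GRCh38, GENCODE release 29) encodes a membrane protein that holds budding virions at the cell surface. It stood at 33.2 and 28.5 CPM in treated knock-in cells, against 1.503 and 2.42 CPM in untreated knock-in cells. It stood at 13.4 and 14.2 CPM in treated wild-type cells, against 1.38 and 2.25 CPM in untreated wild-type cells. Treated and untreated libraries did not overlap in either line, and both treated knock-in libraries lay above both treated wild-type libraries. The response was 3.95 ± 0.29 on the log2 scale in knock-in cells (standard error, edgeR adjusted p = 4.98e-05, n = 2 per group), a 15.5-fold rise, and 2.92 ± 0.29 in wild-type cells (adjusted p = 0.000292), a 7.58-fold rise. BST2 was higher in libraries without the plasma cell signal (treated wild-type libraries, and treated knock-in library 1) than in any untreated library. Without both knock-in libraries numbered 2, which carry the signal, its knock-in response was 4.46. That fit leaves no replicates in the knock-in groups.

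SAMHD1, a phosphohydrolase that breaks down deoxynucleoside triphosphates and so limits reverse transcription (chromosome 20, 36889773 to 36951901), was the most abundant member per transcript length under IFN-γ. It stood at 175.6 and 176.8 CPM in treated knock-in cells, against 43.4 and 43.7 CPM in untreated knock-in cells. It stood at 133 and 141.5 CPM in treated wild-type cells, against 49.4 and 44.2 CPM in untreated wild-type cells. Both pairs of groups were apart, and replicates lay close together. The rises were 4.05-fold in knock-in (log2 2.02 ± 0.13, edgeR adjusted p = 1.62e-05) and 2.93-fold in wild-type cells (1.55 ± 0.12, adjusted p = 8.93e-05). Under spike-in scaling the wild-type rise of SAMHD1 was 0.74 (adjusted p = 0.0127).

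RSAD2 (viperin; chromosome 2, 6865806 to 6898239), a radical SAM enzyme that makes a chain-terminating nucleotide, was nearly absent without IFN-γ and stayed low with it. Its estimated counts were 19.9 and 19.5 in treated knock-in cells, against a rounded count of 1 in each untreated knock-in library. Treated wild-type libraries held 44.1 and 19.7 estimated counts, against 0 and 3.07 for untreated wild-type libraries. The rise therefore rests on 2 rounded counts in untreated knock-in and 3 in untreated wild-type cells. The ratio of counts scaled to library size was 16.2 in knock-in (95% counting interval 4.19 to 138) and 17.5 in wild-type cells (5.74 to 87.3), and these intervals cover counting error only. RSAD2 was called higher in knock-in (edgeR adjusted p = 0.0191) and wild-type cells (adjusted p = 0.0186). The knock-in call was lost without any 1 of the 4 knock-in libraries (adjusted p 0.0571 to 0.129 with log2 values of 3.66 to 4.06) and under spike-in scaling (3.36, adjusted p = 0.0518). The wild-type call was lost without treated library 1 (3.38, adjusted p = 0.11) or untreated library 1 (2.93, adjusted p = 0.0532), and the wild-type value was 7.90 without untreated library 2.

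IFI44 and IFI44L are neighbouring interferon-stimulated genes on chromosome 1 (78649796 to 78664078 and 78619922 to 78646145) that encode related cytoplasmic proteins. IFI44 stood at 26.2 and 29.1 CPM in treated knock-in cells, against 2.06 and 2.22 CPM in untreated knock-in cells. It stood at 16.5 and 15.2 CPM in treated wild-type cells, against 0.919 and 2.20 CPM in untreated wild-type cells. IFI44 was thus higher in every treated library than in any untreated one, with rises of 3.69 ± 0.32 in knock-in (edgeR adjusted p = 0.00011) and 3.35 ± 0.33 in wild-type cells (adjusted p = 0.000282). Its wild-type rise was 2.76 when untreated wild-type library 1 was left out and 4.10 when untreated wild-type library 2 was. With the GC and length trend removed from every library, the rises of IFI44 were 4.79 in knock-in and 4.18 in wild-type cells.

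IFI44L stood at 7.62 and 7.34 CPM in treated knock-in cells, against 0.557 and 0.164 CPM in untreated knock-in cells. It stood at 2.21 and 1.999 CPM in treated wild-type cells, against 0.138 and 0.701 CPM in untreated wild-type cells. The untreated libraries held only 3 to 14 counts of IFI44L, and the treated knock-in libraries stood well above the treated wild-type libraries. IFI44L rose by 4.41 ± 0.71 in knock-in (edgeR adjusted p = 0.000801), with 5.46 without untreated knock-in library 1, 3.73 without untreated knock-in library 2 and 3.76 without both knock-in libraries numbered 2. Its wild-type rise of 2.33 ± 0.67 (adjusted p = 0.0233) was not called without untreated library 1 (1.49, adjusted p = 0.0806), treated library 1 (2.25, 0.0792) or treated library 2 (2.404, 0.0594), nor under spike-in scaling (1.62, 0.09), and it was 3.88 without untreated wild-type library 2. With the GC and length trend removed the rises of IFI44L were 5.71 in knock-in and 3.32 in wild-type cells.

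**Figure D2:**
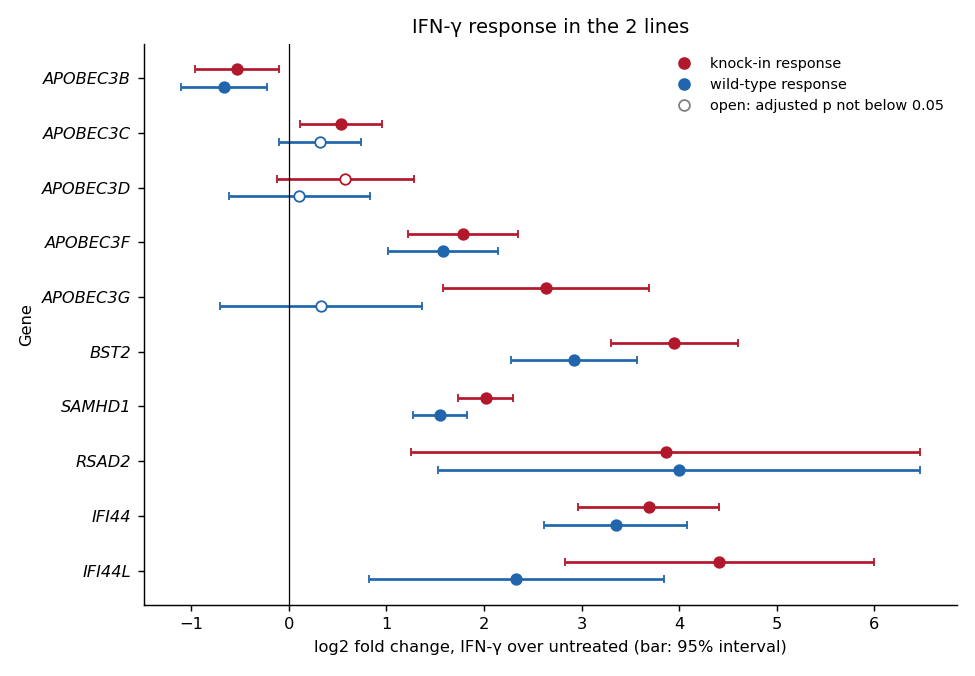
Points show the log2 fold change of each gene with IFN-γ over untreated, knock-in above wild-type in each row, with bars for the 95% interval of the edgeR fit and open points where adjusted p was not below 0.05. BST2, SAMHD1, IFI44 and APOBEC3F lie to the right of 0 in both lines, APOBEC3B to the left in both, and APOBEC3G at 2.64 in knock-in and 0.33 in wild-type cells.

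The 5 APOBEC3 genes lie side by side on chromosome 22 (APOBEC3B 38982347 to 38992804, APOBEC3C 39014083 to 39020352, APOBEC3D 39021113 to 39033276, APOBEC3F 39040604 to 39053910 and APOBEC3G 39077005 to 39087743, all on the plus strand), yet they did not respond alike. APOBEC3F rose in both lines, APOBEC3G was called higher in knock-in cells alone, APOBEC3B was called lower in both, and APOBEC3D was called in neither. Their estimated counts were not whole numbers in any library, and neither were those of SAMHD1. Those of RSAD2 were whole in 2 libraries, and those of BST2, IFI44 and IFI44L in all 8 (tolerance 1e-06). Of the distinct 31-base words in GENCODE release 29 transcripts of each gene, the share also found in another member or in APOBEC3A or APOBEC3H was 47.7% for APOBEC3B, 30.2% for APOBEC3F, 22.8% for APOBEC3D, 9.54% for APOBEC3G and 6.29% for APOBEC3C. APOBEC3D shares 82.1% of its words with an annotated read-through gene (ENSG00000284554) that was listed at 0 in every library. APOBEC3B also overlaps the antisense gene APOBEC3B-AS1, and whether counting used strand is not given in the sources used here. SAMHD1 shares 14.1% of its words with other genes of any kind, and 9.53% with TLDC2. Levels of single APOBEC3 genes and of SAMHD1 are therefore uncertain as far as shared reads were split between genes.

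APOBEC3G stood at 8.89 and 11.2 CPM in treated knock-in cells, against 1.00 and 2.18 CPM in untreated knock-in cells. It stood at 2.16 and 2.69 CPM in treated wild-type cells, against 2.65 and 1.21 CPM in untreated wild-type cells. The knock-in groups were apart and the wild-type groups overlapped. The rise in knock-in cells was 2.64 ± 0.47 on the log2 scale (6.22-fold, edgeR adjusted p = 0.00141), and it was 3.31 without untreated knock-in library 2. Without both knock-in libraries numbered 2 the rise was 3.14, in a fit that leaves no replicates in the knock-in groups. In the knock-in libraries without plasma cell transcripts, numbered 1, the level was 8.89 CPM with and 1.00 CPM without IFN-γ. In wild-type cells the change was 0.33 ± 0.46 (95% interval −0.71 to 1.36, adjusted p = 0.611), and −0.54 under spike-in scaling. Both untreated wild-type libraries carried plasma cell transcripts and neither treated one did, so the wild-type APOBEC3G response and the signal cannot be told apart.

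APOBEC3F stood at 17.4 and 14.6 CPM in treated knock-in cells, against 4.88 and 4.41 CPM in untreated knock-in cells. It stood at 14.7 and 12.1 CPM in treated wild-type cells, against 5.41 and 3.49 CPM in untreated wild-type cells. Treated and untreated APOBEC3F libraries were apart in both lines, by 1.79 ± 0.25 in knock-in (3.45-fold, edgeR adjusted p = 0.000437) and 1.58 ± 0.25 in wild-type cells (2.99-fold, adjusted p = 0.00151). Under spike-in scaling the wild-type rise of APOBEC3F was 0.76 (adjusted p = 0.123).

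APOBEC3B went the other way. It stood at 13.1 and 16.3 CPM in treated knock-in cells, against 20.5 and 22.1 CPM in untreated knock-in cells. It stood at 7.67 and 9.88 CPM in treated wild-type cells, against 14.1 and 13.8 CPM in untreated wild-type cells. APOBEC3B fell by 0.54 on the log2 scale in knock-in cells (standard error 0.19, edgeR adjusted p = 0.0398) and fell by 0.67 in wild-type cells (0.20, adjusted p = 0.0246), and under spike-in scaling by 1.07 and 1.49. These small changes lost their call in knock-in cells without any 1 of the 4 knock-in libraries (adjusted p 0.0597 to 0.278) and in wild-type cells without treated library 1 (−0.50, adjusted p = 0.166) or untreated library 2 (−0.69, 0.0548). Both knock-in groups held more APOBEC3B than the wild-type group of the same treatment.

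APOBEC3C, a single-domain enzyme and the most abundant of the 5 in CPM, stood at 74.8 and 68.1 CPM in treated knock-in cells, against 44.1 and 54.7 CPM in untreated knock-in cells. It stood at 69.7 and 65.9 CPM in treated wild-type cells, against 64.2 and 44.7 CPM in untreated wild-type cells. The treated libraries of both lines lay together, and untreated wild-type library 1 came close to them. The knock-in change of APOBEC3C was 0.53 ± 0.19 (edgeR adjusted p = 0.0376), which was 0.002 (adjusted p = 0.998) under spike-in scaling and 0.16 (adjusted p = 0.432) with the GC and length trend removed. It was also not called without treated knock-in library 1 (0.46, adjusted p = 0.186) or 2 (0.60, 0.0861), untreated knock-in library 1 (0.38, 0.221) or treated wild-type library 1 (0.53, 0.0646) or 2 (0.53, 0.0644). The wild-type change was 0.31 ± 0.19 (adjusted p = 0.213), called only without untreated wild-type library 1 (0.52, 0.0254), and −0.51 under spike-in scaling. APOBEC3D stood at 6.14 and 5.69 CPM in treated knock-in cells, against 3.27 and 4.65 CPM in untreated knock-in cells. Its treated wild-type libraries held 2.41 and 2.91 CPM, against 2.71 and 2.21 CPM for untreated wild-type libraries, and these overlap. APOBEC3D was not called in knock-in (0.58 ± 0.31, adjusted p = 0.153) or wild-type cells (0.11 ± 0.32, adjusted p = 0.822; −0.72 under spike-in scaling).

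**Figure D3:**
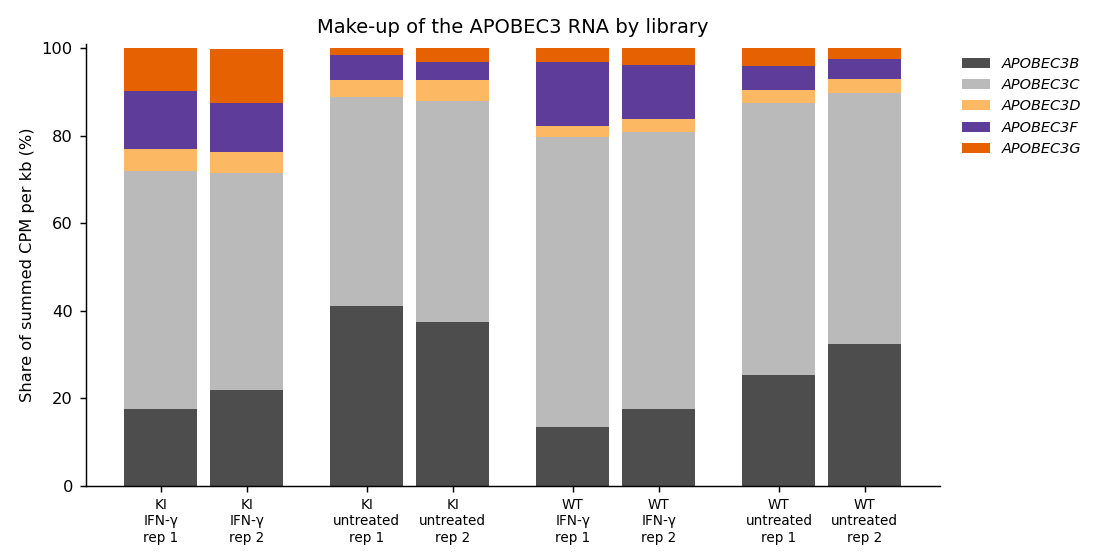
Bars show, for each library, what share of the summed CPM per kilobase of principal transcript of the 5 APOBEC3 genes each gene took. APOBEC3C took the largest share in every library, and APOBEC3G took 9.93 to 12.5% in treated knock-in libraries and 1.67 to 3.97% in the others.

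Scaled to the length of the principal transcript, the make-up of the APOBEC3 RNA differed between groups. APOBEC3C took 49.7 to 54.4% of the summed level of the 5 genes in treated knock-in, 47.9 to 50.4% in untreated knock-in, 63.3 to 66.3% in treated wild-type and 57.3 to 62.4% in untreated wild-type cells. APOBEC3B took 17.5 to 21.9% in treated and 37.5 to 41% in untreated knock-in cells, and 13.4 to 17.5% in treated and 25.2 to 32.5% in untreated wild-type cells. APOBEC3F took 11.2 to 13.3% in treated and 4.25 to 5.54% in untreated knock-in cells, with 12.2 to 14.6% in treated and 4.68 to 5.50% in untreated wild-type cells. The summed level was 48.8 and 48.6 CPM per kilobase in treated knock-in, 32.7 and 38.5 in untreated knock-in, 37.3 and 36.9 in treated wild-type and 36.5 and 27.7 in untreated wild-type cells. Shares of one whole move against each other by construction, and no test was made on them.

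Among all 10 genes, the order of levels per kilobase changed with IFN-γ. In treated knock-in cells SAMHD1 (33.3 CPM per kilobase) and BST2 (30.3) came first, followed by APOBEC3C (25.4) and IFI44 (16.4). In untreated knock-in cells APOBEC3C (17.5) came before APOBEC3B (13.9) and SAMHD1 (8.22), and the libraries of BST2, APOBEC3F, APOBEC3D and IFI44, at 1.93 to 1.27 CPM per kilobase, overlapped from each to the next. In treated wild-type cells the order was SAMHD1 (25.9), APOBEC3C (24.1), BST2 (13.5) and IFI44 (9.39). In untreated wild-type cells APOBEC3C (19.3) led, and APOBEC3B (9.09) and SAMHD1 (8.84) overlapped. RSAD2 had the lowest mean in every group, from 0.0139 to 0.353 CPM per kilobase, and its libraries overlapped those of IFI44L in treated (0.358) and untreated wild-type cells (0.0714).

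The next question is whether the lines differed under IFN-γ. Of the 10 genes, APOBEC3G and BST2 were called higher in treated knock-in than in treated wild-type cells and none was called lower, against 1.63% and 1.28% of all tested genes (2.91% in either direction). The median log2 difference was 0.77 over the 10 genes and −0.01 over all tested genes. APOBEC3G was 4.12-fold higher (log2 2.04 ± 0.45, edgeR adjusted p = 0.0476), at 8.89 and 11.2 CPM in treated knock-in against 2.16 and 2.69 CPM in treated wild-type cells. BST2 was 2.24-fold higher (1.17 ± 0.25, adjusted p = 0.0403), at 33.2 and 28.5 CPM against 13.4 and 14.2 CPM in the same groups. Both calls were lost without any 1 of the 4 treated libraries, at log2 values of 1.87 to 2.20 for APOBEC3G (adjusted p 0.162 to 0.287) and 1.05 to 1.27 for BST2 (0.177 to 0.297), where 1 library left in a group is assumed to vary like the other groups. They were also lost under spike-in scaling (1.996, adjusted p = 0.158, and 1.11, 0.119). In the fit without both knock-in libraries numbered 2, which compares treated libraries free of plasma cell transcripts, the differences were 1.87 for APOBEC3G (adjusted p = 0.269) and 1.27 for BST2 (0.166).

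IFI44L (1.83 ± 0.59, edgeR adjusted p = 0.169), APOBEC3D (1.16 ± 0.32, 0.0955), IFI44 (0.80 ± 0.27, 0.195), APOBEC3B (0.75 ± 0.19, 0.0849) and SAMHD1 (0.36 ± 0.12, 0.179) were higher in treated knock-in cells without being called, and for each of these 5 both treated knock-in libraries lay above both treated wild-type libraries, as they did for 27.8% of all tested genes. A fit on the 4 treated libraries alone called all 5 of them higher (adjusted p 0.00378 for IFI44L, 0.00637 for IFI44, 0.00737 for SAMHD1, 0.0243 for APOBEC3D and 0.0377 for APOBEC3B), in a setting where 15.2% of all tested genes were called. APOBEC3F (0.26, 95% interval −0.28 to 0.79), APOBEC3C (0.08, −0.34 to 0.49) and RSAD2 (−0.70, −2.65 to 1.24) were not called in that fit or in the fit on all libraries.

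**Figure D4:**
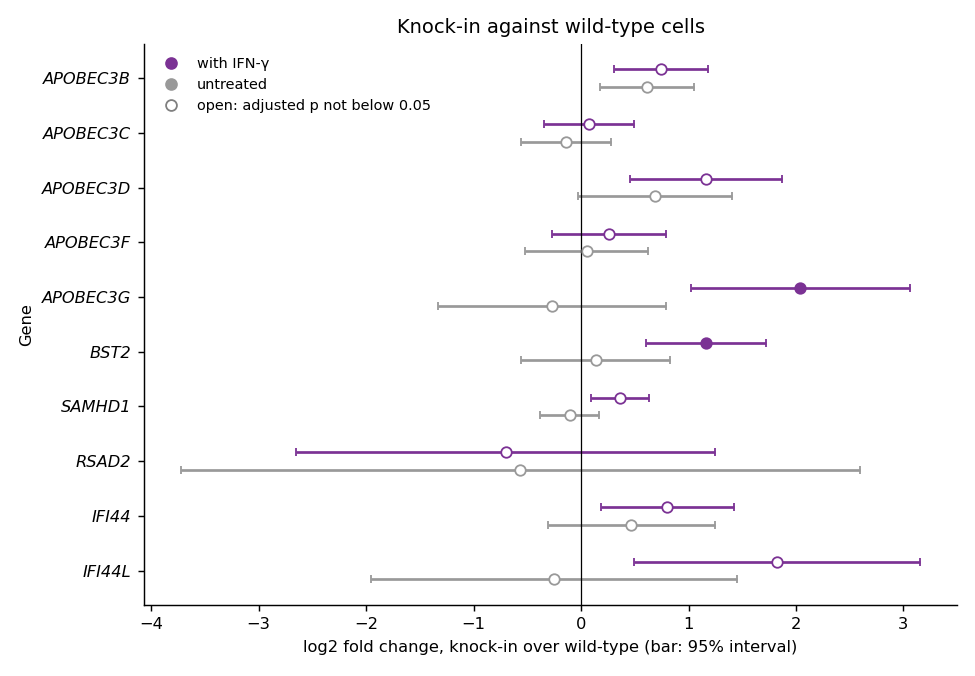
Points show the log2 fold change of knock-in over wild-type cells, with IFN-γ above untreated in each row, bars for the 95% interval, and open points where adjusted p was not below 0.05. With IFN-γ 9 of the 10 values lie to the right of 0 and those of APOBEC3G and BST2 were called, while no untreated value was called.

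Without IFN-γ none of the 10 genes was called between the lines (0 called by edgeR, DESeq2 and limma-voom, 1 gene at an unadjusted p below 0.05), against 8.43% of all tested genes (4.26% higher and 4.17% lower), and the median log2 difference was −0.03 over the 10 genes and −0.02 over all. That gene was APOBEC3B (0.61 ± 0.19, unadjusted p = 0.0106, edgeR adjusted p = 0.0802), which was called with the GC and length trend removed (0.66, adjusted p = 0.0346). APOBEC3G (−0.27, 95% interval −1.33 to 0.79) and BST2 (0.14, −0.56 to 0.83), the genes called under IFN-γ, had intervals that span 0. Without both knock-in libraries numbered 2 the untreated difference was −0.94 for APOBEC3G (adjusted p = 0.583) and turned to −0.26 for BST2 (0.848). IFI44 was called higher in untreated knock-in cells only without untreated wild-type library 2 (1.22, adjusted p = 0.0132).

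The difference between the 2 responses was tested directly. No member and no other gene was called (0 of 16519, edgeR), and DESeq2 and limma-voom called no member. At an unadjusted p below 0.05 there were 3 members. The share of all tested genes at that threshold is not given here, so this count cannot be read as an excess. APOBEC3G responded more in knock-in cells by 2.31 ± 0.65 (unadjusted p = 0.00586, adjusted p = 0.688), BST2 by 1.03 ± 0.40 (0.0279, adjusted 0.688) and SAMHD1 by 0.47 ± 0.17 (0.023, adjusted 0.688). With no filter on low counts APOBEC3G was called (adjusted p = 0.00783). Over the other alternatives its adjusted p ran from 0.0559, without untreated wild-type library 2, to 1. Leaving out 1 library moved the APOBEC3G difference between 1.64, with untreated wild-type library 1 left out, and 2.99, with untreated knock-in library 2 left out. That of BST2 moved between 0.63, lacking untreated wild-type library 2, and 1.43, lacking untreated knock-in library 2. Without both knock-in libraries numbered 2 the differences were 2.82 for APOBEC3G and 1.54 for BST2 (adjusted p = 1 for both). The wild-type response within each difference sets treated libraries without plasma cell transcripts against untreated libraries with them, so the 2 cannot be told apart there. The same libraries enter the line comparison and the response comparison.

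**Figure D5:**
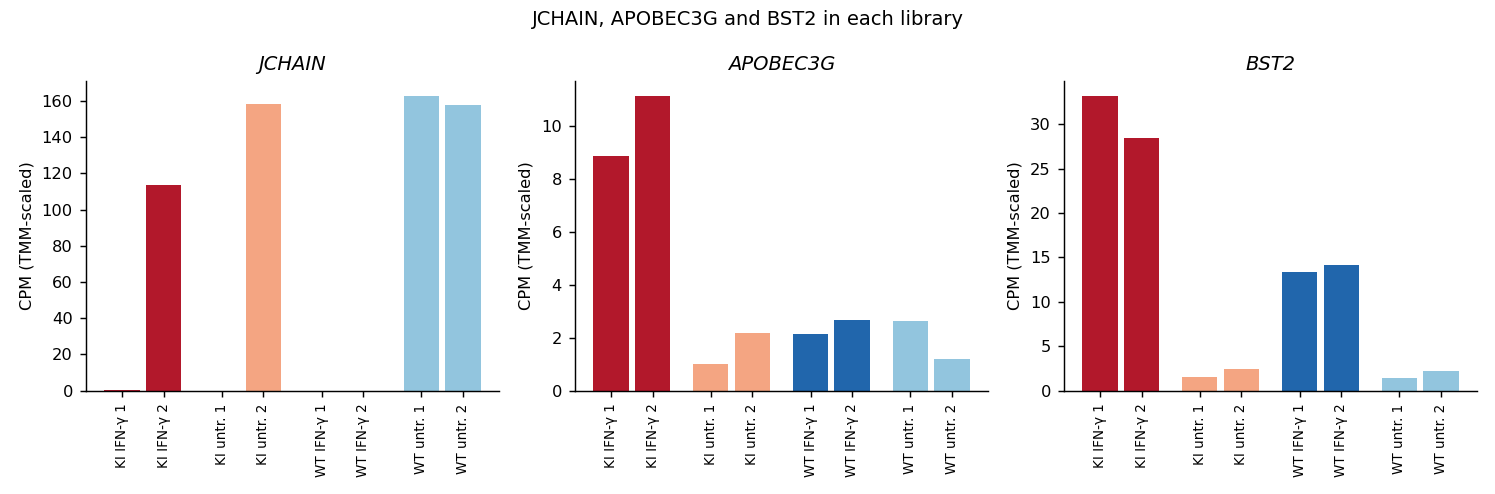
Bars show CPM in each library for JCHAIN, a plasma cell gene, and for APOBEC3G and BST2. JCHAIN was at 113.8 to 162.9 CPM in 4 libraries and at 0.183 CPM or less in the other 4, and the high APOBEC3G and BST2 libraries of the treated knock-in group include one with and one without it.

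Other restriction factors, a list of 37 further genes, mostly rose as well. Of 34 tested, 25 rose and 2 fell in knock-in cells (median log2 fold change 1.34), and 24 rose and none fell in wild-type cells (median 0.97), beside the shares of all genes given above. This list and those below were also chosen with earlier results of these data known. By the mean of both responses the largest changes were those of GBP2, a guanylate-binding protein (4.58 in knock-in, 5.31 in wild-type cells, edgeR adjusted p = 7.56e-06 and 5.19e-06), IFITM1, which blocks viral entry (4.72 and 4.81, adjusted p = 3e-06 and 4.66e-06), IFI27 (2.55 and 5.22, 0.00207 and 0.000596) and GBP5 (2.02 and 5.25, 0.00927 and 0.00072). SERINC3, which lowers the infectivity of retroviral particles, was among those called lower in knock-in cells (−0.40, adjusted p = 0.0253). Between the treated lines, 2 of the 34 were called, IFITM1 (0.90, adjusted p = 0.0299) and ISG20, an exonuclease (1.60, 0.00812), both higher in knock-in cells. In that comparison 2.91% of all tested genes were called (1.63% higher and 1.28% lower). CMPK2, which overlaps RSAD2 head to head on the opposite strand, rose by 2.69 in knock-in (0.000413) and 2.07 in wild-type cells (0.00216).

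Other APOBEC genes were at or near 0. APOBEC1, APOBEC2 and APOBEC4 had 0 counts in every library, APOBEC3A, which shares 29.6% of the 31-base words of APOBEC3B, reached 0.538 CPM at most and was not tested, and APOBEC3H reached 1.07 CPM and was not called in knock-in (−0.27, adjusted p = 0.87) or wild-type cells (−0.04, 0.984). Of 12 genes for uracil removal and deoxynucleotide supply, 8 fell and none rose in each line, against 25.8% of all tested genes called lower in knock-in and 20.8% in wild-type cells (median −0.60 in knock-in and −0.54 in wild-type cells), among them RRM2B (−1.49 and −1.06), DCK (−1.54 and −0.92), the thymine DNA glycosylase TDG (−1.29 and −1.06) and the glycosylase MBD4 (−1.04 and −1.01). Of 12 interferon signalling regulators, 9 rose and 3 fell in knock-in and 8 rose and 1 fell in wild-type cells, against 52.1% and 37.9% of all tested genes called in either direction in knock-in and wild-type cells. Among them were IRF1 (4.92 and 4.86), SOCS1 (3.47 in knock-in, and 1.43 with adjusted p = 0.0545 in wild-type cells) and USP18 (2.22 and 2.16).

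The genes whose log2 CPM over the 8 libraries was most like that of 9 members, among 10875 or 10876 with a mean of at least 5 CPM, were found by Pearson's r, given here as a description over libraries that differ in treatment. They were NEDD4L for IFI44 (r = 0.998), CLSTN3 for SAMHD1 (0.997), CYB5R3 for APOBEC3F (0.996), PLEKHA7 for BST2 (0.993), RRN3P1 for APOBEC3B (0.987), GNB1L for RSAD2 (0.986), AHSA2P for APOBEC3D (0.982), CHST14 for IFI44L (0.981) and RFXANK for APOBEC3G (0.970).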

How the data were processed

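The 8 HCT116 libraries hold rRNA-depleted total RNA. The submitters' processing notes name Trimmomatic, kallisto and GRCh38, and versions, transcript annotation and strand setting were not given in the sources used. The deposited values are the authors' estimated counts per Ensembl ID, which need not be whole because shared reads are split, and they were rounded for the tests. Symbols, positions, GC content and lengths came from GENCODE release 29, which named 35583 of the 40295 IDs. The members and gene lists were chosen with earlier results of these data known, and genes outside the members were named by size of change within those lists (4 per list) or by rank of likeness. SERINC3, ISG20, APOBEC3A, APOBEC3H and CMPK2 were named after their values were seen. Some results on other genes are not reported here.

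Genes were filtered with filterByExpr (minimum count 10), scaled by TMM (trimmed mean of M-values) and fitted with edgeR 4.0.16 (R 4.3.3, quasi-likelihood F test) on all 8 libraries with group as the only factor. P-values were Benjamini-Hochberg adjusted over 16519 genes, with a threshold of 0.05. Standard errors were taken from each log2 fold change and its F. CPM are estimated counts per 1000000 of the scaled library size, and CPM per kilobase uses the principal transcript's length. Alternatives included DESeq2 1.42.0, limma-voom (limma 3.58.1), ERCC spike-in scaling, other filters and removal of a GC and length trend per library. The fit was tested on simulated counts with known changes. Replicates of a group differed by more than sampling noise (chi-square per gene 7.17 to 55.3). Spike-ins made up 0.228 to 0.271% of counts in treated and 0.11 to 0.141% in untreated libraries, so scaling by them lowers the median response of all genes by 0.53 in knock-in and 0.80 in wild-type cells on the log2 scale. Mean GC content weighted by counts was 48.7 to 48.8% in treated and 46 to 47.4% in untreated libraries, and its part in the responses was not tested beyond that alternative. Counting intervals cover counting error only.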

Additional observations from a re-analysis of the deposited data

How the results depend on the processing

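Over the 10 genes and 5 comparisons, 865 recomputed values kept their direction and their side of the threshold, 50 lost a call, 25 gained one and 34 changed direction. Outside the fits that leave 1 library in a group, 7 to 9 members were called in the knock-in response. In the wild-type response 5 to 7 were called, with 1 exception. Under spike-in scaling 7 were called in knock-in (36.9% of all tested genes) and 5 in wild-type cells (42.2%). In wild-type cells 4 were called against a minimum change of 1.5-fold (11.6% of all tested genes). Without 1 library, or without both knock-in libraries numbered 2, the counts for the responses fell in some fits, and the share of all tested genes called moved as well. Between the treated lines, 2 were called as reported. There were 0 under spike-in scaling, with the 1.5-fold minimum or without both knock-in libraries numbered 2 (1.18%, 0.969% and 0.685% of all tested genes), 4 with limma-voom (3.74%) or the replicate block with the GC and length trend removed (7.59%), 5 with no filter (5.09%) or with that trend removed (7.17%), 7 with the compared groups alone (15.2%), and 0 to 5 without 1 library (0.851 to 6.39%). Between the untreated lines 1 was called with the trend removed (13.8%), also with the block (15.7%), and 0 to 1 without 1 library (2.33 to 27.7%). For the difference between responses, 1 (APOBEC3G) was called with no filter (1.11%). The cause was not tested.

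Same-numbered libraries deviated together with correlations of 0.428 (knock-in), 0.078 (wild-type), 0.048 (treated) and 0.194 (untreated), and both knock-in libraries numbered 2 carry plasma cell transcripts. The labels do not say that a number marks a shared batch, and the correlations were not high across all groups, so the numbers were not taken to pair the libraries. The replicate block alone called 9 members for the knock-in response (52.8% of all tested genes), 7 for the wild-type response (41%) and 2 between treated lines (3.17%). It called 0 between untreated lines (11.2%) and 0 for the difference between responses (0%).

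Values that changed direction were, under spike-in scaling, the wild-type responses of APOBEC3C (−0.51), APOBEC3D (−0.72) and APOBEC3G (−0.54), the untreated line differences of APOBEC3F (−0.31) and BST2 (−0.17), and the response difference of RSAD2 (0.009). Others were the APOBEC3D wild-type response with the trend removed (−0.21, and −0.22 with the block), and the untreated line difference of RSAD2 with limma-voom (0.19) and of BST2 (−0.26) and IFI44L (0.42) without both knock-in libraries numbered 2. Without 1 library the wild-type responses of APOBEC3D (−0.035 to 0.23) and APOBEC3G (−0.13 to 0.93) changed direction. So did the untreated line differences of APOBEC3C (−0.38 to 0.14), APOBEC3F (−0.22 to 0.40), APOBEC3G (−0.95 to 0.42), BST2 (−0.26 to 0.53), IFI44 (−0.042 to 1.22), IFI44L (−1.31 to 1.29) and RSAD2 (−1.56 to 3.34). The same held for the response differences of APOBEC3B (−0.038 to 0.32), APOBEC3C (−0.056 to 0.45), APOBEC3F (−0.13 to 0.48), IFI44 (−0.42 to 0.86) and RSAD2 (−4.04 to 0.87). RSAD2 and untreated IFI44L rest on few counts, which limits every comparison of them.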

Other observations

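Of the 10 nearest tested protein-coding genes on either side of the members, 10 were called in knock-in and 4 in wild-type cells with IFN-γ, against 52.1% and 37.9% of all tested genes. Not all of them are close neighbours, as TTLL7 lies 5200950 bases from IFI44. CMPK2, which overlaps RSAD2, is also on the list of other restriction factors. MVB12A, which begins 74 bases from BST2, rose by 1.02 on the log2 scale in knock-in cells (edgeR adjusted p = 0.00684) and changed by 0.15 in wild-type cells (0.672). CBX7, beyond the APOBEC3G end of the cluster, rose in knock-in (0.94, adjusted p = 0.00768) and wild-type cells (0.77, 0.0287). CBX6, at the APOBEC3B end, rose in knock-in cells (1.00, 0.0103) and was not called in wild-type cells (0.54, 0.13). Beside SAMHD1, SOGA1 rose in both lines (1.68, 0.00156, and 1.41, 0.0062), while RBL1 was called lower in knock-in cells with IFN-γ (−0.39, 0.0273) and lower in treated knock-in than in treated wild-type cells (−0.69, 0.0228). DNAJB4, the nearest such gene on the IFI44L side at 601958 bases, was called lower in both lines (−1.63, 0.000188, and −1.10, 0.00139).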
